A study of Homo sapiens with 12 samples.

Results

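MDA-MB-468 breast cancer cells that had been kept in tazemetostat were compared with cells kept in DMSO, in 3 libraries of poly(A) RNA for each. These 6 libraries were chosen by their treatment label, out of 12 libraries in all, and every gene in the count tables was used. MDA-MB-468 is an established triple-negative line of basal type, grown as a single line in culture. Tazemetostat inhibits EZH2, and DMSO is its solvent. The tazemetostat group received 5 µM of the drug from day -5, through repeated passaging, and the DMSO group received DMSO over the same days. On day 0 both groups went into medium with 2% serum, and RNA was collected after 24 h. The other 6 libraries, which received ipatasertib (an inhibitor of the kinase AKT, 5 µM, from day 0) with or without tazemetostat, entered the same fit. They also gave a second measure of the tazemetostat effect, the combination against ipatasertib alone. The labels name replicates A, B and C and do not say whether these were separate cultures, so that the spread behind each p-value may be a technical one.

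EZH2 is the catalytic subunit of Polycomb repressive complex PRC2, which places repressive methyl groups on a lysine of histone H3. The mark is found over promoters of silent genes, among them many developmental regulators, and it is diluted as cells divide once its writer is blocked. PRC2 is built on a core of EZH2 or EZH1 with EED, SUZ12 and RBBP4 or RBBP7, and accessory subunits such as JARID2 and MTF2 help to bring it to chromatin. PRC1, the other main Polycomb complex, binds the mark through its CBX subunits.

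Reads counted in genes ranged between 19023947 and 26070000 per library with tazemetostat and between 22682755 and 28746965 with DMSO, which puts 3 counts at 0.104 to 0.158 CPM. CPM scales the counts of a gene by the library's total in genes and its TMM factor. It is not divided by gene length, so levels are compared between libraries and not between genes. The number of genes with a read was 17540 ± 276 with tazemetostat and 16800 ± 123 with DMSO (SD, n = 3 each, exact two-sided permutation p = 0.1, the smallest that 3 against 3 allow). Within the tazemetostat group library A differed most: chi-square divided by its degrees of freedom was 15.5 against B and 9.28 against C, whereas B and C gave 3.6. Without the A library of every group, 8138 genes passed the test, which held 94.2% of the genes called with all libraries, none with the opposite sign. The summed level of 29 basal and identity genes was 6010 to 6230 CPM with tazemetostat and 5940 to 6210 CPM with DMSO. Markers of other cell types were low or mixed. Fibroblast markers summed to 533 to 574 CPM with tazemetostat and 711 to 774 CPM with DMSO, and THY1 had no read; S100A4, also made by many epithelial tumours, was most of that sum, with 545, 501 and 537 CPM with tazemetostat and 696, 758 and 748 CPM with DMSO. Leukocyte markers summed to 66.1 to 73.2 CPM with tazemetostat and 83.9 to 89.2 CPM with DMSO, with no read of CD3D or TYROBP. Endothelial markers summed to 37.5 to 42.8 CPM with tazemetostat and 34.1 to 36.8 CPM with DMSO, with no read of TIE1. At an edgeR adjusted p under 0.05, 5 of 6 tested endothelial markers were higher with tazemetostat and 1 was lower. Among those at 1 CPM or more with ipatasertib, 2 of 3 were higher and 1 was lower. Fibroblast markers had 3 higher and 1 lower of 5 tested, and leukocyte markers 1 and 1 of 4. The part of other cell types in the results was not tested.

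Genes changed in both directions with tazemetostat. Of 14571 genes tested, 3775 (25.9%) were higher with tazemetostat and 3099 (21.3%) were lower at an edgeR adjusted p under 0.05. Changes of 1 or more on the log2 scale were found for 1245 higher genes (8.54%) and 80 lower genes (0.549%). Of the 1245, 470 lay at 1 CPM or more in the ipatasertib libraries. Below that, a gene could pass the filter on low counts through its tazemetostat level. The median log2 fold change was 0.63 over the higher genes, -0.35 over the lower genes and 0.009 over all genes tested. Among the higher genes, 106 had no read in any DMSO library, whereas 0 of the lower genes had no read in any tazemetostat library. At least 5 CPM with tazemetostat and under 0.5 CPM with DMSO was found for 45 genes, and the reverse for 0. The groups overlapped for 300 (4.36%) of the called genes. With library totals in place of TMM factors the split was 4573 higher and 2159 lower genes, and the median of all genes was 0.08. In bulk RNA, more RNA per cell and more cells that express a gene cannot be told apart.

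The direction varied with the level of a gene, judged by its CPM in the ipatasertib libraries, which belong to neither of the compared groups. Of 1924 tested genes at 1 to 5 CPM there, 31.9% rose and 9.41% fell. The shares were 29.1% and 15.9% of 2834 genes at 5 to 20 CPM, and 20.4% and 26.2% of 5570 genes at 20 to 100 CPM. At 100 CPM or more, 14.5% of 2446 genes rose and 38.8% fell. Genes below 1 CPM there could pass the filter on low counts through their level in the tazemetostat libraries, so list counts that include such genes are followed by the count of members at 1 CPM or more with ipatasertib, written as from 1 CPM. Over all 12774 tested genes at that level, 2929 (22.9%) rose, 3040 (23.8%) fell and the median log2 fold change was -0.02. Of these, 470 rose and 45 fell by 1 or more on the log2 scale. Large changes were thus mostly rises at this level too, while calls in both directions were about equal in number. The background for each list count below is 25.9% higher and 21.3% lower over all genes tested. From 1 CPM it is 22.9% and 23.8%.

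**Figure D1:**
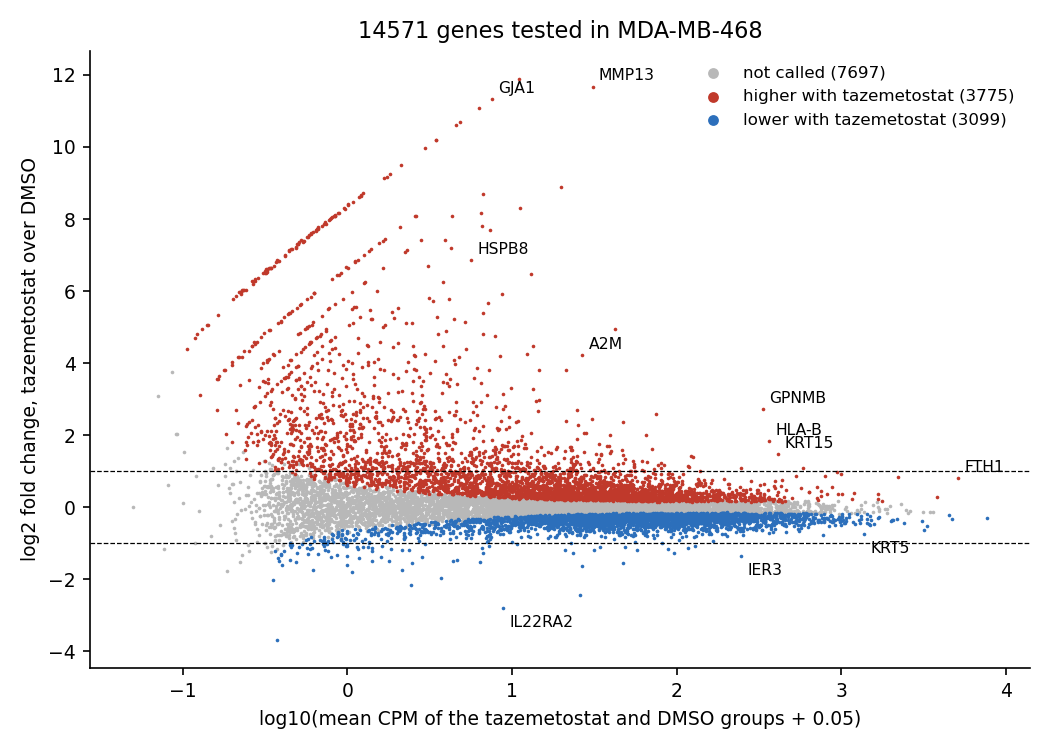
Log2 fold change of tazemetostat over DMSO (vertical axis) against the log10 of the mean CPM of both groups plus 0.05 (horizontal axis) for the 14571 genes tested, with dashed lines at -1 and 1. The 3775 higher genes (red) spread upward mainly at low levels, with slanted bands of genes that had 0, 1 or few DMSO reads, whereas the 3099 lower genes (blue) lie mostly above -1.

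The 12 largest rises, by log2 fold change among called genes of at least 5 CPM whose groups do not overlap, were of genes at or near 0 with DMSO. GJA1, which encodes a connexin of gap junctions, had 15.1, 13.6 and 15.97 CPM with tazemetostat and no DMSO read, which is at least 382-fold higher if the DMSO group is set at 3 counts in all. ODZ3, a teneurin adhesion protein, had 12.4, 13.7 and 11.3 CPM with tazemetostat and no DMSO read, at least 322-fold higher. SHISA2, an endoplasmic reticulum protein that dampens Wnt and FGF signalling, had 11.4, 7.32 and 10.2 CPM with tazemetostat and no DMSO read, at least 242-fold higher. SOX2, a transcription factor of pluripotent and neural stem cells, had 8.96, 7.99 and 10.3 CPM with tazemetostat and no DMSO read, at least 233-fold higher. Reads of these genes came in all 3 tazemetostat libraries, with B the lowest for GJA1, SHISA2 and SOX2.

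The bound was 173-fold for the transcription factor MAF, 172-fold for the angiotensin receptor AGTR1 and 149-fold for the serotonin-gated channel subunit HTR3A, each without a DMSO read. CNTNAP2, a neurexin-family adhesion protein of axons, had 39.98, 38.1 and 40.96 CPM with tazemetostat and 0.0710, 0 and 0.148 CPM with DMSO (log2 fold change 8.89 ± 0.22, edgeR adjusted p = 1.91e-18), from 2768 counts and 6 counts. The zinc finger factor MECOM had 24.7, 20.3 and 21.8 CPM with tazemetostat and 0.0355, 0.136 and 0.0370 CPM with DMSO (log2 fold change 8.30 ± 0.26, edgeR adjusted p = 2.12e-16), from 1538 counts and 5 counts. With so few DMSO reads, the errors given for CNTNAP2 and MECOM are smaller than counting error alone. SATB1, which organises chromatin loops, had 915 counts with tazemetostat and 2 with DMSO. Their ratio, scaled to the group totals, was 505 (95% interval from counting 139 to 4180). WBP5, a WW-domain-binding protein, and MMP13, a collagenase, complete the 12, with 21.9 ± 0.286 and 61.5 ± 9.39 CPM with tazemetostat against 0 and 1 counts over the DMSO group.

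Promoters of 3 of these silent genes are shown with that of IL22RA2, the largest fall at 5 CPM or more, because the mark that EZH2 writes is best known at promoters rich in CG dinucleotides. Each runs over 250 bases before to 50 after the start of the gene (RefSeq, GRCh38.p14), 5′ to 3′ on the strand of the gene, with CG in capitals, which reads the same on both strands. SHISA2 (chr13:26051967-26052266, minus strand) and GJA1 (chr6:121435396-121435695, plus strand) had the most and the fewest CG among the 8 of the 12 rises matched to an entry, SOX2 (chr3:181711675-181711974, plus strand) lay between them, and IL22RA2 lies at chr6:137173595-137173894, minus strand. They were chosen after their values were seen.
SHISA2: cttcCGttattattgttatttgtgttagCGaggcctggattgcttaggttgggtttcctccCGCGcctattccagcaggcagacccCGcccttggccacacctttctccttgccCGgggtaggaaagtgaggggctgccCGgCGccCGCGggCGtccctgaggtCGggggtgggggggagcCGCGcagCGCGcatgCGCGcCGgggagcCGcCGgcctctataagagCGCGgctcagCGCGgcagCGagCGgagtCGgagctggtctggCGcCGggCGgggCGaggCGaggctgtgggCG
SOX2: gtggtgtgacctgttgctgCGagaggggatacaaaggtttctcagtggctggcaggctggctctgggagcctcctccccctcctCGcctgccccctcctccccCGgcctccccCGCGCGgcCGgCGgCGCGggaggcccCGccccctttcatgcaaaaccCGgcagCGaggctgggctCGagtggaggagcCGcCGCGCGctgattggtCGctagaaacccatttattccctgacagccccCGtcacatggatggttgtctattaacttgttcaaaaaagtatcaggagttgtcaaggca
GJA1: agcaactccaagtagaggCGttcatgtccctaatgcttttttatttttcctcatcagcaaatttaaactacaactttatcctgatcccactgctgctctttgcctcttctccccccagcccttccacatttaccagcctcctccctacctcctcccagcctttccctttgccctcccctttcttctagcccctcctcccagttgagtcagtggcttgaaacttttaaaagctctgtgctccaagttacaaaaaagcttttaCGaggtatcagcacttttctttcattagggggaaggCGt
IL22RA2: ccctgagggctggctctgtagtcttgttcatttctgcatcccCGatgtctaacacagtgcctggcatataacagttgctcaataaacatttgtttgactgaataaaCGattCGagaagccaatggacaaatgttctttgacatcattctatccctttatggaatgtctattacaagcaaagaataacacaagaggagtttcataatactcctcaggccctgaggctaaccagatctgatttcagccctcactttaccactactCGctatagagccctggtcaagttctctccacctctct
The SHISA2 promoter holds 34 CG, SOX2 20, GJA1 3 and IL22RA2 4. Over the 15843 promoters of protein-coding genes in the same table, the median was 22 CG (quartiles 8 and 32), and 98.1% hold at least 1. By the usual thresholds (GC content over 50%, observed over expected CG over 0.6), 4 of the 8 matched rises are CpG-rich, against 63.2% of all promoters. Large rises were seen for genes on both sides of these thresholds.

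Among genes already expressed with DMSO, the 10 largest rises in CPM included FTH1, CASP14, SCD, VOPP1, KLK5, GPNMB, HLA-C and HLA-B. FTH1, the heavy chain of the iron store ferritin, had 6206, 7135 and 6258 CPM with tazemetostat and 3751, 3601 and 3775 CPM with DMSO (log2 fold change 0.82 ± 0.064, edgeR adjusted p = 8.12e-10). CASP14, a caspase of cornifying skin, had 2818, 2853 and 2838 CPM with tazemetostat and 1533, 1611 and 1601 CPM with DMSO (log2 fold change 0.84 ± 0.057, edgeR adjusted p = 5.79e-11). GPNMB, a glycoprotein of melanosomes and lysosomes, had 604, 571 and 569 CPM with tazemetostat and 87.2, 90.4 and 88.4 CPM with DMSO (log2 fold change 2.71 ± 0.064, edgeR adjusted p = 8.27e-19). GPNMB also stands in the melanocyte marker list, which summed to 582 to 619 CPM with tazemetostat and 95.9 to 98.6 CPM with DMSO, while TYR, which defines that cell type, had no read. SCD, the main desaturase of fatty acids, was at 4211 ± 85.2 CPM with tazemetostat and 3433 ± 81.2 CPM with DMSO (log2 fold change 0.30 ± 0.061), a small relative rise at a high level. For each of the 10 genes every tazemetostat library was above every DMSO library. The same separation holds for all called genes whose values are given library by library here.

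**Figure D2:**
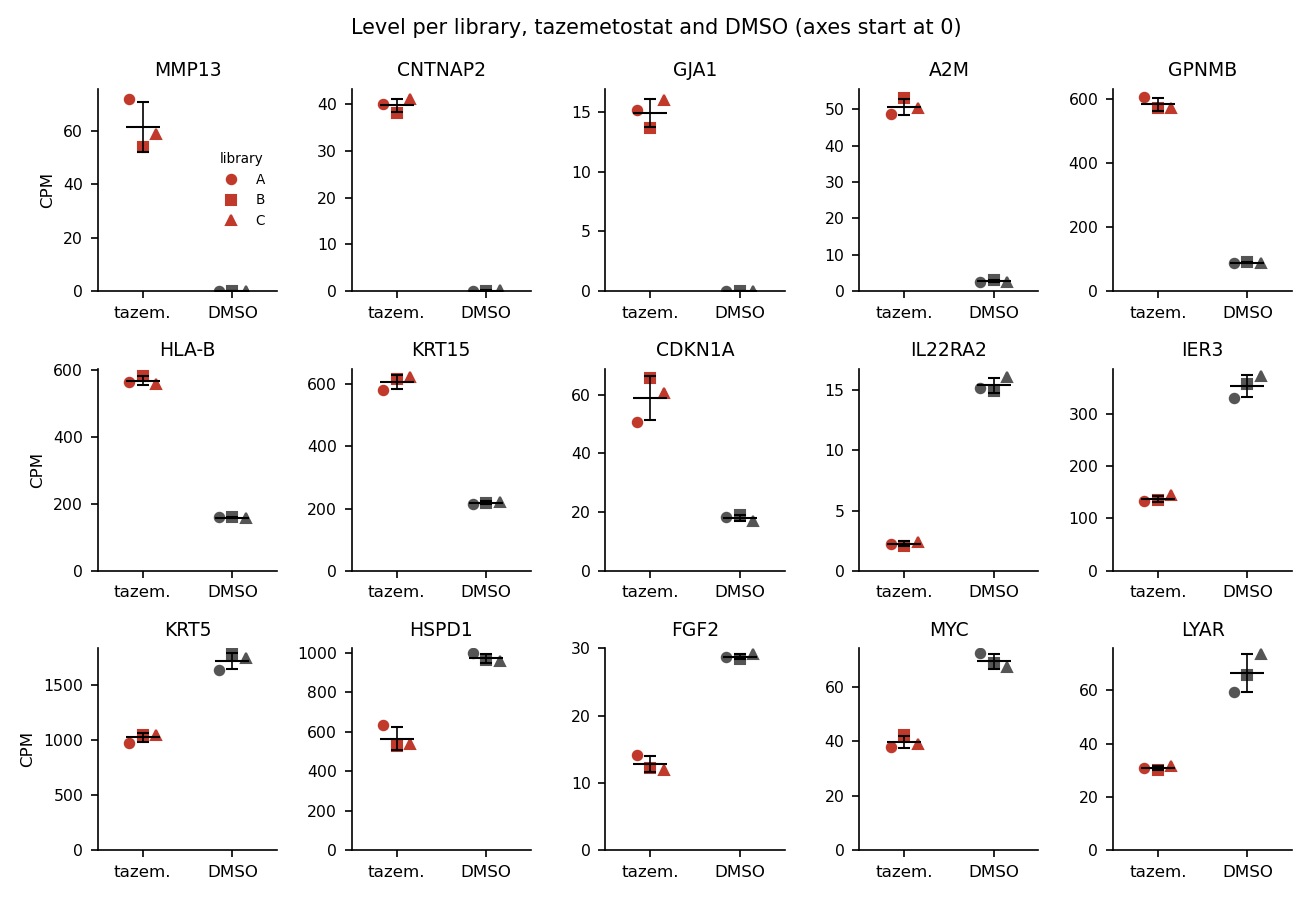
Level in CPM (vertical axes, all from 0) of 15 genes in the tazemetostat libraries (red, left) and DMSO libraries (grey, right), with symbols for libraries A, B and C and bars for the mean and SD of 3 libraries. The groups are apart for every gene shown; MMP13, CNTNAP2 and GJA1 lie at or near 0 with DMSO, whereas IL22RA2 and IER3 are the deepest falls shown.

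No change in the RNA of the drug's target passed the test. EZH2 had 117, 117 and 105 CPM with tazemetostat and 128, 113 and 112 CPM with DMSO (log2 fold change -0.06 ± 0.073, edgeR adjusted p = 0.521), and the groups overlapped. EZH1, its homologue, had 9.59, 13.2 and 11.7 CPM with tazemetostat and 9.93, 9.09 and 10.5 CPM with DMSO (log2 fold change 0.23 ± 0.11, edgeR adjusted p = 0.09), also with overlap. Of the 12 PRC2 subunits tested, 1 rose and 5 fell, with a median log2 fold change of -0.16. JARID2, which binds PRC2 and DNA, rose to 74.8 ± 2.49 CPM with tazemetostat, against 59.04 ± 1.77 CPM with DMSO (log2 fold change 0.34 ± 0.066, edgeR adjusted p = 0.000181). MTF2 (log2 fold change -0.34 ± 0.081, edgeR adjusted p = 0.00164), SUZ12 (-0.26 ± 0.085, 0.014), C17orf96 (-0.22 ± 0.087, 0.0441), EED (-0.22 ± 0.067, 0.0112) and RBBP7 (-0.17 ± 0.068, 0.0398) fell. The number of lower subunits was 3 without DMSO library A, B or C or without tazemetostat library B, and 1 with library totals. In PRC1, 5 of 23 tested members (21.7%) rose and 3 (13%) fell, against 25.9% and 21.3% of all genes tested. From 1 CPM, 4 rose and 3 fell of 22 (18.2% and 13.6%, against 22.9% and 23.8%). With all libraries and TMM factors PRC1 genes were thus not called more often than genes at large. PCGF5 (0.37), BCOR (0.34) and RNF2 (0.32) were among the higher ones and YAF2 (-0.62) and PCGF6 (-0.35) among the lower ones. Without the A libraries 10 PRC1 members were higher and 2 lower, and with library totals 8 were higher. Of 20 tested demethylases, acetylases and members of activating chromatin complexes, 3 rose and 5 fell, and with library totals 5 rose and 3 fell. SMARCD3, a SWI/SNF subunit, was at 21.4 ± 1.245 CPM with tazemetostat and 9.68 ± 0.657 CPM with DMSO (log2 fold change 1.15 ± 0.094, edgeR adjusted p = 1.41e-09).

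Developmental transcription factors, which are classical Polycomb targets, rose more often than they fell. Outside the HOX clusters 40 of 67 tested members rose (59.7%) and 12 fell (17.9%), against 25.9% and 21.3% of all genes tested. From 1 CPM, 17 rose and 12 fell of 42 (40.5% and 28.6%, against 22.9% and 23.8%). The median was 0.46 (0.13 from 1 CPM). Besides SOX2 and SATB1, TBX3, a T-box factor of mammary and limb development, had 13.8, 13.7 and 14.5 CPM with tazemetostat and 0.284, 0.182 and 0.333 CPM with DMSO (log2 fold change 5.66 ± 0.19, edgeR adjusted p = 3.71e-16). The error given for TBX3 is smaller than counting error alone, as its DMSO reads were few. The HOX cofactor MEIS1 had 9.49, 10.5 and 11.7 CPM with tazemetostat and 4.26, 4.04 and 3.70 CPM with DMSO (log2 fold change 1.41 ± 0.11, edgeR adjusted p = 8.9e-10). TWIST1, a driver of mesenchymal change, had 1.52, 2.28 and 1.91 CPM with tazemetostat and no DMSO read, at least 50.1-fold higher. Among the 12 members that fell, ID4, an inhibitor of basic helix-loop-helix factors, was at 35.1 ± 3.42 CPM with tazemetostat and 80.2 ± 4.39 CPM with DMSO (log2 fold change -1.20 ± 0.083, edgeR adjusted p = 1.01e-10), and the homeobox factors IRX5, PITX1 and IRX3 had log2 fold changes of -0.53, -0.50 and -0.47. ID4, IRX5, PITX1, IRX3 and TWIST1 were chosen after their values were seen. The 39 HOX genes had 25 tested members, of which 10 rose (40%) and 2 fell (8%). From 1 CPM, 6 rose and 2 fell of 19 (31.6% and 10.5%, against 22.9% and 23.8% of all genes), a difference of few genes. HOXA10 had 14.7, 12.5 and 12.8 CPM with tazemetostat and 6.71, 6.41 and 7.001 CPM with DMSO (log2 fold change 0.98 ± 0.12, edgeR adjusted p = 9.51e-07), and HOXC10 fell by 0.20 on the log2 scale (edgeR adjusted p = 0.0208), a call lost with library totals. The HOXB7 call (log2 fold change 0.25) was lost without the A libraries, and its groups overlapped.

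Genes of the extracellular matrix and of cell adhesion rose in several lists. Of 38 collagens, 16 of 27 tested members rose and 2 fell (from 1 CPM, 8 rose and 2 fell of 15). COL4A1, a chain of basement membrane collagen, had 24.7, 28.3 and 27.8 CPM with tazemetostat and 1.56, 1.82 and 2.41 CPM with DMSO (log2 fold change 3.80 ± 0.13, edgeR adjusted p = 5.41e-16). COL4A2, its partner chain, had 22.01, 27.9 and 27.2 CPM with tazemetostat and 3.19, 3.09 and 3.45 CPM with DMSO (log2 fold change 2.99 ± 0.13, edgeR adjusted p = 5.36e-14). The A library was the lowest of the tazemetostat group for both chains. COL12A1, which decorates collagen fibrils, was at 24.6 ± 0.389 CPM with tazemetostat and 3.19 ± 0.131 CPM with DMSO (log2 fold change 2.95 ± 0.1, edgeR adjusted p = 5.23e-16). The summed level of the 38 collagens was 219, 251 and 252 CPM with tazemetostat and 132, 147 and 146 CPM with DMSO (exact two-sided permutation p = 0.1). Among laminins, integrins and basement membrane genes 20 of 31 tested members rose and 1 fell (from 1 CPM, 16 rose and 1 fell of 27), with a median of 0.30 (0.26 from 1 CPM). LAMB3, a chain of the laminin that anchors epithelium, had 52.4, 59.2 and 57.3 CPM with tazemetostat and 32.6, 30.8 and 30.7 CPM with DMSO (log2 fold change 0.85 ± 0.077, edgeR adjusted p = 8.06e-09). ITGA2, a collagen-binding integrin chain, rose by 0.88, and HSPG2, the core protein of perlecan, by 0.88.

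Among matrix glycoproteins and proteoglycans 17 of 32 tested members rose and 4 fell (from 1 CPM, 10 rose and 4 fell of 21). Fibronectin, FN1, had 80.6, 78.1 and 76.6 CPM with tazemetostat and 15.8, 14.99 and 14.6 CPM with DMSO (log2 fold change 2.38 ± 0.073, edgeR adjusted p = 9.08e-17). NOV, a secreted CCN protein, had 44.3, 35.8 and 38.1 CPM with tazemetostat and 2.98, 3.04 and 2.33 CPM with DMSO (log2 fold change 3.82 ± 0.11, edgeR adjusted p = 5.29e-17). TGFBI, a TGF-beta-induced matrix protein, was at 22.7 ± 2.20 CPM with tazemetostat and 7.12 ± 0.722 CPM with DMSO (log2 fold change 1.68 ± 0.11, edgeR adjusted p = 2.28e-11). Of metalloproteases and their inhibitors, 12 of 23 tested members rose and 3 fell (from 1 CPM, 5 rose and 3 fell of 13). The inhibitor TIMP2 was at 84.5 ± 2.01 CPM with tazemetostat and 42.3 ± 0.555 CPM with DMSO (log2 fold change 0.998 ± 0.065, edgeR adjusted p = 2.72e-11). The inhibitor TIMP3 was at 83.1 ± 3.06 CPM with tazemetostat and 176 ± 6.53 CPM with DMSO (log2 fold change -1.08 ± 0.066, edgeR adjusted p = 9.78e-12), the opposite direction. MMP14, a membrane-bound collagenase, rose by 0.73. Among connexins and pannexins 7 of 14 tested members rose and 1 fell (from 1 CPM, 5 rose and 1 fell of 11), with 4 higher without DMSO library C: GJB2 was at 13.5 ± 1.38 CPM with tazemetostat and 3.05 ± 0.688 CPM with DMSO (log2 fold change 2.16 ± 0.14, edgeR adjusted p = 5.1e-11). GJA5 fell to 29.4 ± 1.46 CPM with tazemetostat, against 44.6 ± 0.777 CPM with DMSO (log2 fold change -0.60 ± 0.071, edgeR adjusted p = 4.07e-07). Of the epithelial-mesenchymal factors and cadherins, 13 of 22 tested members rose and 1 fell (from 1 CPM, 6 rose and 1 fell of 13), with a median of 0.55 (0.19 from 1 CPM). VIM, the intermediate filament of mesenchymal and basal cells, had 60.9, 56.95 and 60.6 CPM with tazemetostat and 19.8, 21.9 and 19.2 CPM with DMSO (log2 fold change 1.55 ± 0.081, edgeR adjusted p = 7.77e-13). The epithelial factors ELF3, GRHL3 and ELF5 rose too, by 0.47, 0.63 and 1.10. Claudins did not share a direction, with 2 higher and 2 lower of 13 tested (from 1 CPM, 2 rose and 2 fell of 12).

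Many genes known from the nervous system rose. Of 64 protocadherins, adhesion proteins encoded largely in clusters, 30 of 43 tested members rose and 1 fell (from 1 CPM, 15 rose and 1 fell of 20), with a median of 0.83 (0.64 from 1 CPM). PCDH7 had 50.5, 38.3 and 43.2 CPM with tazemetostat and 9.19, 11.1 and 11.1 CPM with DMSO (log2 fold change 2.07 ± 0.13, edgeR adjusted p = 1.33e-11). PCDH20 had 7.70, 6.46 and 6.11 CPM with tazemetostat and 0.177, 0.0454 and 0.259 CPM with DMSO (log2 fold change 5.27 ± 0.28, edgeR adjusted p = 9.94e-13). Its DMSO reads were few, and this error is smaller than counting error alone. In the clusters PCDHB10, PCDHB13 and PCDHB14 rose by 1.30, 1.002 and 0.98; cluster genes share sequence, so the counting could split their reads, and these values are uncertain. Of axon guidance ligands and receptors, 37 of 58 tested members rose and 3 fell (from 1 CPM, 27 rose and 3 fell of 46). NEO1, a receptor for netrins and repulsive guidance molecules, had 59.3, 63.2 and 59.8 CPM with tazemetostat and 28.1, 27.4 and 24.2 CPM with DMSO (log2 fold change 1.20 ± 0.077). EPHB6, an ephrin receptor without kinase activity, had 71.4, 82.4 and 76.3 CPM with tazemetostat and 33.5, 33.3 and 33.8 CPM with DMSO (log2 fold change 1.20 ± 0.074). EFNB3, EPHB2 and PLXNA2 rose by 1.13, 0.85 and 0.90. Of 84 potassium channel genes, 17 of 31 tested members rose and 2 fell (from 1 CPM, 10 rose and 2 fell of 19), and 10 had no read. KCNS3, a modifier subunit, had 24.9, 22.97 and 24.3 CPM with tazemetostat and 1.95, 3.13 and 2.45 CPM with DMSO (log2 fold change 3.28 ± 0.13, edgeR adjusted p = 5.38e-15). KCNQ1, a channel of epithelia and heart, was at 14.9 ± 1.01 CPM with tazemetostat and 5.37 ± 0.0826 CPM with DMSO (log2 fold change 1.48 ± 0.12). KCNN4, a calcium-activated channel, fell to 106 ± 5.25 CPM with tazemetostat, against 177 ± 10.8 CPM with DMSO (log2 fold change -0.74 ± 0.081, edgeR adjusted p = 1.64e-07). Among synapse and neuronal genes 19 of 33 tested members rose and 2 fell (from 1 CPM, 13 rose and 2 fell of 21), among them the microtubule proteins MAP1B (1.81) and MAP2 (0.99) and the tubulin TUBB2B (2.56).

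**Figure D3:**
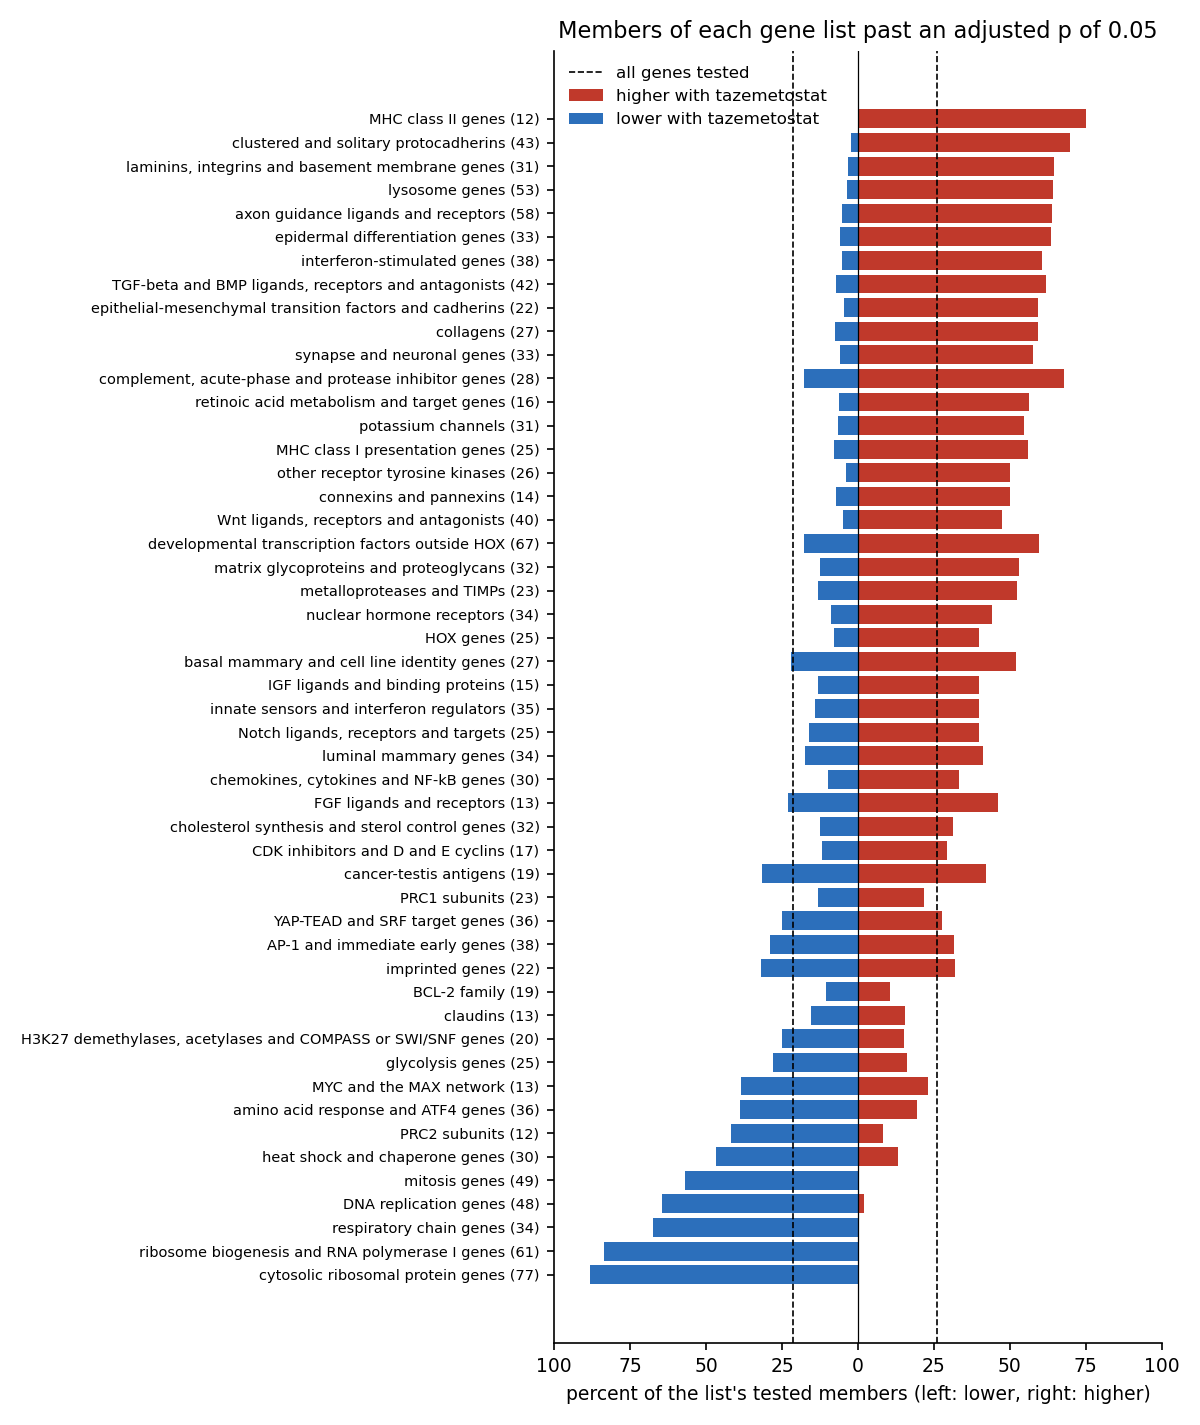
Share of the tested members of each gene list that were higher (red, to the right) or lower (blue, to the left) with tazemetostat at an edgeR adjusted p under 0.05, for the 50 lists with at least 10 tested members (number in parentheses), ordered by the difference of the shares, with members below 1 CPM in the ipatasertib libraries included. Dashed lines mark the shares over all genes tested, 25.9% higher and 21.3% lower; protocadherins, laminins and lysosome genes lie near the top, and both ribosome lists lie at the bottom with 0 higher members.

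Ligands and receptors of growth factor pathways rose in several families. Of TGF-beta and BMP genes 26 of 42 tested members rose and 3 fell (from 1 CPM, 20 rose and 3 fell of 36): the ligands BMP7, BMP2 and INHBA rose by 1.04 ± 0.11, 0.97 ± 0.11 and 0.85 ± 0.1, and the signal transducer SMAD3 by 0.75 ± 0.074. Of Wnt genes 19 of 40 tested members rose and 2 fell (from 1 CPM, 13 rose and 2 fell of 33): the ligand WNT5A was at 15.7 ± 2.39 CPM with tazemetostat and 4.85 ± 0.360 CPM with DMSO (log2 fold change 1.69 ± 0.15, edgeR adjusted p = 3.63e-09). The secreted antagonist DKK1 was at 55.9 ± 7.88 CPM with tazemetostat and 28.3 ± 2.17 CPM with DMSO (log2 fold change 0.98 ± 0.1, edgeR adjusted p = 5.99e-08), and the receptor FZD4 rose by 0.67. FGF genes moved both ways, with 6 higher and 3 lower of 13 tested (from 1 CPM, 4 rose and 3 fell of 11). The ligand FGF2 had 14.2, 12.3 and 11.9 CPM with tazemetostat and 28.7, 28.4 and 29.2 CPM with DMSO (log2 fold change -1.18 ± 0.099, edgeR adjusted p = 2.72e-09). Its binding protein FGFBP1, which releases FGF from the matrix, fell by 0.67 on the log2 scale, and the receptor FGFR2 had 29.7, 32.7 and 32.1 CPM with tazemetostat and 13.9, 15.6 and 15 CPM with DMSO (log2 fold change 1.09 ± 0.089, edgeR adjusted p = 1.45e-09). Of other receptor tyrosine kinases 13 of 26 tested members rose and 1 fell (from 1 CPM, 10 rose and 1 fell of 23): RET was at 5.83 ± 0.297 CPM with tazemetostat and 0.911 ± 0.164 CPM with DMSO (log2 fold change 2.66 ± 0.19, edgeR adjusted p = 2.41e-10). PDGFRA, a receptor for platelet-derived growth factor, was at 13.3 ± 0.139 CPM with tazemetostat and 3.996 ± 0.493 CPM with DMSO (log2 fold change 1.72 ± 0.12, edgeR adjusted p = 5.71e-11). Of IGF ligands and binding proteins 6 of 15 tested members rose and 2 fell (from 1 CPM, 6 rose and 2 fell of 14): IGFBP4 was at 77.8 ± 3.95 CPM with tazemetostat and 138 ± 2.47 CPM with DMSO (log2 fold change -0.82 ± 0.067, edgeR adjusted p = 1.38e-09). IGFBP5 was at 119.6 ± 7.70 CPM with tazemetostat and 197 ± 3.82 CPM with DMSO (log2 fold change -0.72 ± 0.073, edgeR adjusted p = 4.64e-08). IGF2R, which clears the ligand, rose by 0.68. Of Notch genes 10 of 25 tested members rose and 4 fell (from 1 CPM, 9 rose and 4 fell of 21), with 2 lower without DMSO library C and with library totals. The targets HES2 (0.83) and HES4 (-0.58) moved in opposite directions.

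Many class I presentation and interferon-stimulated genes rose. Of 25 class I presentation genes tested, 14 rose and 2 fell (from 1 CPM, 13 rose and 2 fell of 24), with a median of 0.33 (0.31 from 1 CPM). HLA-B had 564, 584 and 559 CPM with tazemetostat and 159.8, 159.5 and 157 CPM with DMSO (log2 fold change 1.84 ± 0.071, edgeR adjusted p = 4.99e-15). HLA-C had 746, 834 and 793 CPM with tazemetostat and 359, 381 and 378 CPM with DMSO (log2 fold change 1.09 ± 0.069, edgeR adjusted p = 2.23e-11). HLA-F and HLA-E, nonclassical relatives, rose by 1.45 ± 0.082 and 0.73 ± 0.064; these near-identical genes share reads, and the counting could split them. The 26 genes of the list summed to 8910, 8720 and 8740 CPM with tazemetostat and 6880, 7070 and 7250 CPM with DMSO (exact two-sided permutation p = 0.1). Class II genes were tested for 12 of 17 members and 9 of them rose (from 1 CPM, 2 rose and 0 fell of 5), at very low levels. The median was 1.52 over the 12 and 0.07 over the 5, and with the filter of 50 counts 2 rose. HLA-DQB1 had 113 counts with tazemetostat and none with DMSO, at least 41.6-fold higher at 1.58 ± 0.424 CPM. HLA-DRB1 was at 1.09 ± 0.300 CPM with tazemetostat and 0.0118 ± 0.0205 CPM with DMSO. CIITA, the class II master regulator, was at 0.184 ± 0.234 CPM with tazemetostat and 0.0484 ± 0.0419 CPM with DMSO and was not tested. The sum over the list was 152, 158 and 156 CPM with tazemetostat and 150, 145 and 153 CPM with DMSO. RFX5 and RFXANK, factors that bind class II promoters, did not pass the test (log2 fold changes -0.06 and -0.11). The 5 class II genes named were chosen after their values were seen, and HLA-DQB1 and HLA-DRB1 have near-identical relatives with which they share reads.

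Of interferon-stimulated genes 23 of 38 tested members rose and 2 fell (from 1 CPM, 19 rose and 2 fell of 32), with a median of 0.46 (0.39 from 1 CPM). IFI44 had 5.97, 6.13 and 5.70 CPM with tazemetostat and 1.99, 1.59 and 1.04 CPM with DMSO (log2 fold change 1.94 ± 0.18, edgeR adjusted p = 1.17e-08). IFIT2, an interferon-induced inhibitor of translation, had 9.17, 8.59 and 7.74 CPM with tazemetostat and 3.48, 3.23 and 3.26 CPM with DMSO (log2 fold change 1.35 ± 0.12, edgeR adjusted p = 7.09e-09). Its relative IFIT3 had 14.1, 16.5 and 14.4 CPM with tazemetostat and 7.88, 6.22 and 8.04 CPM with DMSO (log2 fold change 1.02 ± 0.1, edgeR adjusted p = 3.95e-08). HERC5 and IFIT1 rose by 1.08 and 0.88. Of innate sensors and interferon regulators 14 of 35 tested members rose and 5 fell (from 1 CPM, 12 rose and 4 fell of 32). IFI16, which senses DNA, had 52.8, 52.7 and 48.7 CPM with tazemetostat and 9.26, 9.27 and 9.74 CPM with DMSO (log2 fold change 2.45 ± 0.095, edgeR adjusted p = 5.38e-15). TLR3, which senses RNA duplexes, had 10.6, 7.28 and 9.40 CPM with tazemetostat and 2.45, 2.04 and 2.59 CPM with DMSO (log2 fold change 1.92 ± 0.15, edgeR adjusted p = 1.23e-09). IFNGR1, a chain of the interferon gamma receptor, fell to 95.5 ± 7.32 CPM with tazemetostat, against 167 ± 1.96 CPM with DMSO (log2 fold change -0.80 ± 0.082, edgeR adjusted p = 5.37e-08). Cytokine and NF-kB genes were mixed, with 10 higher and 3 lower of 30 tested (from 1 CPM, 9 rose and 3 fell of 26). IL1RN, the interleukin antagonist, and CSF1 rose by 2.16 ± 0.12 and 1.64 ± 0.12. NFKBIA and NFKBIZ fell, by 0.51 and 0.68 on the log2 scale. Among complement, acute-phase and protease inhibitor genes 19 of 28 tested members rose and 5 fell (from 1 CPM, 15 rose and 5 fell of 24), with a median of 0.74 (0.64 from 1 CPM). A2M, a broad protease inhibitor, had 48.6, 53.1 and 50.4 CPM with tazemetostat and 2.59, 2.998 and 2.56 CPM with DMSO (log2 fold change 4.23 ± 0.098, edgeR adjusted p = 7.7e-19). SERPINA1, the inhibitor of neutrophil elastase, had 14.5, 17.8 and 15.7 CPM with tazemetostat and 0.745, 0.999 and 0.889 CPM with DMSO (log2 fold change 4.20 ± 0.15, edgeR adjusted p = 1.18e-15). PI3, another elastase inhibitor, and the acute-phase gene SAA1 fell, as given with the largest falls.

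Keratins of the basal layer moved in opposite directions. KRT15 had 581, 618 and 622 CPM with tazemetostat and 214, 219 and 223 CPM with DMSO (log2 fold change 1.47 ± 0.067, edgeR adjusted p = 8.18e-14). KRT5, by contrast, had 976, 1044 and 1046 CPM with tazemetostat and 1636, 1780.0 and 1739 CPM with DMSO (log2 fold change -0.75 ± 0.068, edgeR adjusted p = 8.27e-09). Its partner KRT14 had 113, 114 and 115 CPM with tazemetostat and 213, 219 and 226 CPM with DMSO (log2 fold change -0.94 ± 0.069, edgeR adjusted p = 2.34e-10). Of 27 basal and identity genes tested, 14 rose and 6 fell (from 1 CPM, 12 rose and 6 fell of 23), with 3 lower without DMSO library B or C and with library totals. Epidermal differentiation genes rose in 21 of 33 tested members and fell in 2 (from 1 CPM, 15 rose and 2 fell of 25), and their sum was 4480, 4610 and 4510 CPM with tazemetostat and 3170, 3210 and 3200 CPM with DMSO (exact two-sided permutation p = 0.1). The kallikrein proteases of shedding skin KLK6, KLK5 and KLK8 rose by 1.09 ± 0.068, 0.98 ± 0.06 and 0.78 ± 0.08. IVL, a component of the cornified envelope, was at 6.04 ± 0.924 CPM with tazemetostat and 1.77 ± 0.127 CPM with DMSO (log2 fold change 1.78 ± 0.16, edgeR adjusted p = 8.21e-09). Of luminal genes 14 of 34 tested members rose and 6 fell (from 1 CPM, 11 rose and 6 fell of 30): SCGB2A2, the secretory protein mammaglobin, had 51.4, 36.97 and 47.3 CPM with tazemetostat and 9.29, 11.9 and 11.6 CPM with DMSO (log2 fold change 2.05 ± 0.12). AGR2, which folds secreted mucins, had 74.5, 68.5 and 63.6 CPM with tazemetostat and 38.8, 29.9 and 34.2 CPM with DMSO (log2 fold change 1.001 ± 0.087). The prolactin receptor PRLR rose by 0.82 ± 0.076 and MUC1 by 0.68 ± 0.069, while the milk genes CSN1S1, CSN2, CSN3 and LALBA had no read.

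Lysosome genes rose in 34 of 53 members and fell in 2, with a median of 0.32 and a sum of 7960, 8040 and 7940 CPM with tazemetostat and 6230, 6200 and 6260 CPM with DMSO (exact two-sided permutation p = 0.1). The cathepsins CTSL1 and CTSL2 and the sphingomyelinase SMPD1 rose by 1.21 ± 0.082, 1.06 ± 0.084 and 0.81 ± 0.086. In retinoic acid metabolism 9 of 16 tested members rose and 1 fell (from 1 CPM, 8 rose and 1 fell of 13): DHRS3, which reduces retinaldehyde, had 179, 188 and 182 CPM with tazemetostat and 68.2, 68.2 and 71.98 CPM with DMSO (log2 fold change 1.40 ± 0.078, edgeR adjusted p = 2.85e-12). LRAT, which stores retinol as an ester, was at 7.99 ± 1.16 CPM with tazemetostat and 1.02 ± 0.143 CPM with DMSO (log2 fold change 2.93 ± 0.18, edgeR adjusted p = 9.95e-12). ALDH1A3, which makes retinoic acid, and the receptor RARB rose by 0.46 and 1.04. Of nuclear hormone receptors 15 of 34 tested members rose and 3 fell (from 1 CPM, 12 rose and 3 fell of 27), with NR2F2 and NR3C2 up by 2.55 ± 0.17 and 1.28 ± 0.1. VDR, the vitamin D receptor, was at 76.1 ± 5.06 CPM with tazemetostat and 117 ± 7.03 CPM with DMSO (log2 fold change -0.62 ± 0.072, edgeR adjusted p = 3.07e-07).

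Few falls reached a log2 fold change of -1. The 12 largest by log2 fold change, chosen by the same rule as the rises, were IL22RA2, FLJ41200, SLC12A3, SPTSSB, PI3, SAA1, SLC7A2, MAGEB4, IER3, NEURL3, C8orf85 and BBOX1. IL22RA2, a soluble decoy receptor for an interleukin, had 2.25, 2.02 and 2.41 CPM with tazemetostat and 15.2, 14.9 and 16.1 CPM with DMSO (log2 fold change -2.79 ± 0.14, edgeR adjusted p = 3.74e-13). FLJ41200, which carries no functional annotation here, had 10.1, 6.95 and 7.24 CPM with tazemetostat and 41.8, 42.3 and 46.1 CPM with DMSO (log2 fold change -2.44 ± 0.11, edgeR adjusted p = 5.71e-14). SPTSSB, a small subunit of serine palmitoyltransferase, had 15.3, 10.7 and 12.9 CPM with tazemetostat and 34.7, 41.2 and 44.01 CPM with DMSO (log2 fold change -1.63 ± 0.11, edgeR adjusted p = 7.94e-11). PI3 had 26.3, 21.9 and 23.1 CPM with tazemetostat and 66.1, 72.8 and 70.9 CPM with DMSO (log2 fold change -1.56 ± 0.12, edgeR adjusted p = 3.44e-10). SAA1 had 3.56, 3.25 and 3.04 CPM with tazemetostat and 9.93, 9.63 and 8.82 CPM with DMSO (log2 fold change -1.53 ± 0.15, edgeR adjusted p = 2.81e-08). IER3, an immediate early gene, had 133, 134 and 144 CPM with tazemetostat and 330.2, 357 and 373 CPM with DMSO (log2 fold change -1.36 ± 0.076, edgeR adjusted p = 2.89e-12). The log2 fold changes of SLC12A3 (a sodium chloride transporter), SLC7A2 (a transporter of cationic amino acids), MAGEB4 (a cancer-testis antigen), NEURL3, C8orf85 and BBOX1 (an enzyme of carnitine synthesis) were -1.96, -1.49, -1.47, -1.28, -1.27 and -1.26. The rule requires groups that do not overlap, so the separation of the libraries in all 12 adds no support. Among all 14571 genes tested, 8280 had groups that did not overlap.

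Genes of ribosome production fell together. Of 77 cytosolic ribosomal protein genes tested, 68 fell and 0 rose at an edgeR adjusted p under 0.05, with a median log2 fold change of -0.36. With DESeq2 70 fell and 0 rose, and at an unadjusted edgeR p under 0.05 72 fell and 0 rose. With library totals 62 fell and 0 rose, with a median of -0.29. The sum of the list was 39600, 36900 and 37900 CPM with tazemetostat and 47000, 50400 and 50100 CPM with DMSO, a difference of -22.4% of the DMSO mean (exact two-sided permutation p = 0.1). RPL14, of the large subunit, had 314, 282 and 297 CPM with tazemetostat and 406, 464 and 492 CPM with DMSO (log2 fold change -0.61 ± 0.085). RPS7, of the small subunit, had 327, 281 and 305 CPM with tazemetostat and 411, 469.5 and 456 CPM with DMSO (log2 fold change -0.55 ± 0.087). Many pseudogenes of this family share its sequence, so the counting could lose or split reads. Of 61 ribosome biogenesis and RNA polymerase I genes, 51 fell and 0 rose (also with DESeq2), with a median of -0.38. At an unadjusted edgeR p under 0.05, 51 fell and 1 rose. With library totals 44 fell and 1 rose, and without the A libraries 51 fell and 2 rose. The sum was 6580, 6390 and 6380 CPM with tazemetostat and 8550, 8710 and 8900 CPM with DMSO, a difference of -26.1%. The assembly factors LYAR, RRS1 and MRTO4 had log2 fold changes of -1.11 ± 0.09, -0.96 ± 0.096 and -0.85 ± 0.085, with LYAR at 30.8, 29.95 and 31.7 CPM with tazemetostat and 59.4, 65.9 and 73.6 CPM with DMSO. In both lists every tazemetostat library summed to less than every DMSO library, and tazemetostat A was the nearest to DMSO. MYC, a transcription factor with targets among ribosome genes, had 37.9, 42.2 and 38.96 CPM with tazemetostat and 72.4, 68.5 and 66.97 CPM with DMSO (log2 fold change -0.80 ± 0.071, edgeR adjusted p = 4.3e-09). A link between MYC and the lower ribosome genes was not tested.

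**Figure D4:**
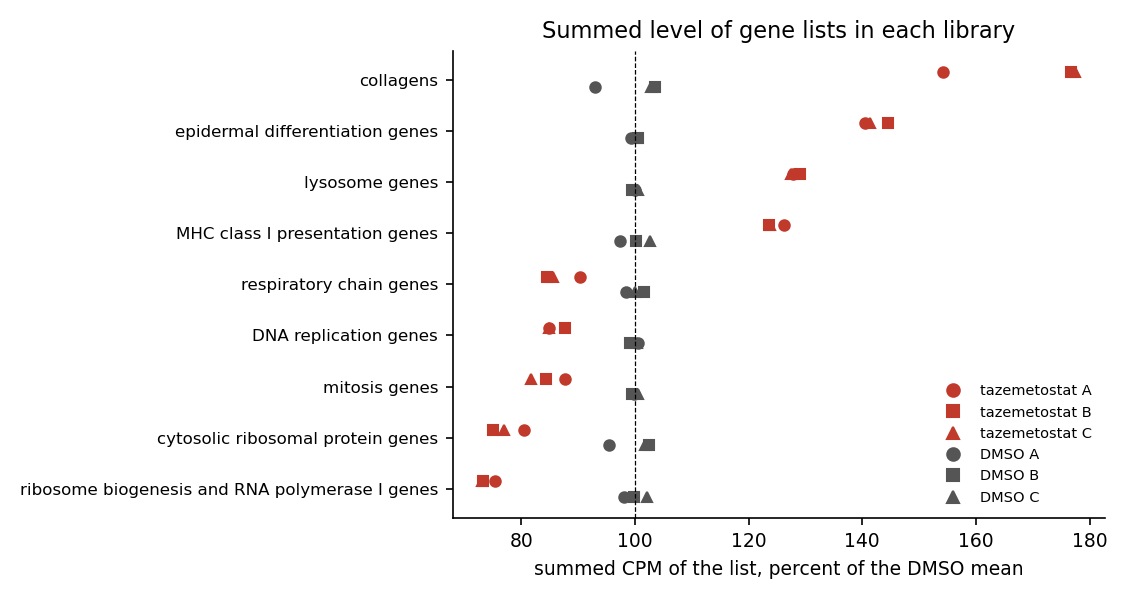
Summed level of 9 gene lists in each library (symbols for A, B and C; tazemetostat in red above DMSO in grey), as a percent of the DMSO mean of that list (horizontal axis). All tazemetostat libraries lie above the DMSO libraries for collagens, epidermal differentiation, lysosome and class I presentation genes, and below them for the 5 lists of ribosome, respiratory and cell division genes.

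With TMM factors replication and division genes fell in most cases, by smaller medians than the ribosome genes. Of 48 DNA replication genes, 31 fell and 1 rose, with a median of -0.22: RFC3, a clamp loader subunit, had 61.1, 51.8 and 56.3 CPM with tazemetostat and 96.6, 92.8 and 96.7 CPM with DMSO (log2 fold change -0.76 ± 0.075, edgeR adjusted p = 3.2e-08). CLSPN and UHRF1 fell by 0.69 and 0.67 on the log2 scale. Of 49 mitosis genes, 28 fell and 0 rose, with a median of -0.23. At an unadjusted p under 0.05 in edgeR 1 mitosis gene rose, and 0 rose in DESeq2. With library totals fewer fell: 22 replication genes were lower and 2 higher, and 23 mitosis genes were lower and 1 higher. Without the A libraries 33 replication genes were lower and 3 higher, and 31 mitosis genes were lower and 2 higher. TOP2A, the topoisomerase of dividing cells, had 579, 459 and 476 CPM with tazemetostat and 702, 752 and 780.3 CPM with DMSO (log2 fold change -0.56 ± 0.09, edgeR adjusted p = 2.56e-05). SMC4 of condensin had 369, 279 and 288 CPM with tazemetostat and 448, 489 and 493 CPM with DMSO (log2 fold change -0.61 ± 0.1, edgeR adjusted p = 5.1e-05). MAD2L1, a spindle checkpoint protein, had 45.2, 39.3 and 39.9 CPM with tazemetostat and 67.1, 66.95 and 69.9 CPM with DMSO (log2 fold change -0.72 ± 0.093, edgeR adjusted p = 1.76e-06). For TOP2A and SMC4 tazemetostat A lay between the other tazemetostat libraries and DMSO. Of 17 CDK inhibitors and D and E cyclins tested, 5 rose, 2 fell and 10 were not called, with a median of 0.006. The share that rose was 29.4%, near the 25.9% of all genes tested. CDKN1A, which encodes the inhibitor p21, had 50.8, 65.6 and 60.5 CPM with tazemetostat and 18.4, 18.9 and 16.9 CPM with DMSO (log2 fold change 1.71 ± 0.12, edgeR adjusted p = 6.75e-11). CDKN2B was at 60.6 ± 4.21 CPM with tazemetostat and 39.9 ± 0.603 CPM with DMSO (log2 fold change 0.60 ± 0.07, edgeR adjusted p = 3.4e-07), and CDKN2A fell by 0.42 on the log2 scale. CCND1, cyclin D1, rose by 0.60 ± 0.065. In the MAX network 3 members rose and 5 fell of 13 (from 1 CPM, 2 rose and 5 fell of 12), and with library totals 6 rose and 3 fell.

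Respiratory genes fell in most cases and chaperone genes in part. Of 30 tested heat shock and chaperone genes, 14 fell and 4 rose (from 1 CPM, 2 rose and 14 fell of 28). With library totals 11 fell and 8 rose. HSPD1, the mitochondrial chaperonin, had 633, 526 and 538 CPM with tazemetostat and 999.6, 961 and 958 CPM with DMSO (log2 fold change -0.78 ± 0.075, edgeR adjusted p = 1.94e-08). HSPE1, its lid, had 18.97, 17.4 and 20.5 CPM with tazemetostat and 38.3, 42.97 and 49.2 CPM with DMSO (log2 fold change -1.20 ± 0.13, edgeR adjusted p = 1.29e-07). The small heat shock protein gene HSPB8 went the other way, with 11.7, 11.4 and 10.3 CPM with tazemetostat and 0.106, 0.0454 and 0.111 CPM with DMSO (log2 fold change 6.85 ± 0.24, edgeR adjusted p = 8.59e-16). With few DMSO reads, the error given for HSPB8 is smaller than counting error alone. Of 34 respiratory chain genes, 23 fell and 0 rose, with a median of -0.21. NDUFV2, a subunit of the first complex, was at 270.0 ± 32.1 CPM with tazemetostat and 379.7 ± 20.5 CPM with DMSO (log2 fold change -0.49 ± 0.093, edgeR adjusted p = 0.000159). At an unadjusted p under 0.05 in edgeR 0 respiratory genes rose, as in DESeq2. With library totals the number of lower respiratory genes was 12. Glycolysis genes were mixed (4 higher, 7 lower of 25 and of the 23 from 1 CPM, but 9 and 6 with library totals and 8 and 9 without the A libraries), as were cholesterol genes (10 higher, 4 lower of 32). With library totals 13 cholesterol genes were higher and 1 lower, without the A libraries 13 and 9, without tazemetostat A 7 were lower and without DMSO C 2 were. Of 36 amino acid response genes 7 were higher and 14 lower, but 9 and 10 with library totals. PSAT1 and MTHFD2 of serine and folate metabolism fell by 0.58 and 0.52 on the log2 scale. The largest falls in CPM were of ACTB, PTMA, HNRNPA2B1, GAPDH, HSP90AA1, CCT6A, KRT5, TUBB, HSP90AB1 and GNB2L1, with log2 fold changes between -0.75 and -0.22. The cytoskeletal actin ACTB had 7154, 6535 and 6901 CPM with tazemetostat and 7668, 8658 and 9008 CPM with DMSO (log2 fold change -0.30 ± 0.069, edgeR adjusted p = 0.00125). The chaperone HSP90AA1 had 3105, 2489 and 2493 CPM with tazemetostat and 3279, 3543 and 3662 CPM with DMSO (log2 fold change -0.38 ± 0.091, edgeR adjusted p = 0.0018). Among apoptosis genes of the BCL-2 family, BMF, a killer protein of the BH3-only type, had 46.5, 55.8 and 53.6 CPM with tazemetostat and 15.4, 15.5 and 15.3 CPM with DMSO (log2 fold change 1.76 ± 0.087, edgeR adjusted p = 3.53e-13). BCL2L11 (BIM) rose by 0.62 ± 0.084. Of 19 family members tested, 2 rose, 2 fell (1 without DMSO library A, 4 without the A libraries) and 15 were not called. The share that rose was 10.5%, against 25.9% of all genes tested, and the median was -0.05. AP-1 and immediate early genes were higher in 12 and lower in 11 of 38 tested (from 1 CPM, 10 rose and 11 fell of 35). YAP and SRF targets were higher in 10 and lower in 9 of 36 tested (from 1 CPM, 5 rose and 9 fell of 29). With library totals 14 were higher and 8 lower. Imprinted genes were higher in 7 and lower in 7 of 22 tested (from 1 CPM, 7 rose and 7 fell of 21). With library totals 9 were higher and 4 lower. Metallothioneins, which bind metals, rose in 5 of 6 tested members, out of 14 listed (from 1 CPM, 4 rose and 0 fell of 5). Only 2 rose without tazemetostat library A or DMSO library C, and 3 without tazemetostat C or DMSO A. Cancer-testis antigens rose in 8 and fell in 6 of 19 tested members, out of 55 listed (from 1 CPM, 1 rose and 6 fell of 10).

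The same drug given on top of ipatasertib gave a second reading in 6 other libraries. In the combination against ipatasertib alone, 3528 genes (24.2%) were higher and 3012 (20.7%) lower. Of the genes higher with tazemetostat than DMSO, 2472 were higher there too, which is 65.5% of this list and 70.1% of the other, and 69 were lower there. Of the lower genes, 1492 were lower there too (48.1% of this list, 49.5% of the other), and 84 were higher. Among changes of 1 or more on the log2 scale the shared higher genes were 1003, or 80.6% of 1245 here and 80.8% of 1241 there. Of the 1245, 470 lay at 1 CPM or more with ipatasertib. The others could pass the filter on low counts through libraries with tazemetostat, so the shares among rises rest in part on such genes. Of the 80 lower genes, 31 were shared with the 105 there. A2M rose by 4.56 on ipatasertib against 4.23 without it, HLA-B by 1.68 against 1.84, and IL22RA2 had -2.83 against -2.79. The ribosomal protein list had 63 of 77 members lower and 0 higher on ipatasertib. In the mitosis list 14 of 49 members were higher and 4 lower on ipatasertib, against 0 and 28 without it, while DNA replication genes fell in 44 of 48.

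The difference between both effects was tested directly as an interaction, which passed for 1744 genes (12%), of which 869 had the larger value with ipatasertib and 875 the smaller. Among the 1245 rises of at least 1 it passed for 83 (6.67%). Only 470 of them lay at 1 CPM or more with ipatasertib. With few or no reads in the DMSO and ipatasertib groups the interaction can hardly pass, so nothing is read from this share. SOX2, without a read in those groups, was at 9.09 ± 1.17 CPM with tazemetostat and 0.994 ± 0.548 CPM with the combination, and was not called. In the mitosis list it passed for 26 of 49 members, 25 of them with the larger value on ipatasertib, and in the replication list for 17 of 48, 15 with the smaller value. FN1 rose by 3.27 with ipatasertib and by 2.38 without it (interaction 0.89 ± 0.11, edgeR adjusted p = 3.83e-05). TGFBI rose by 2.97 and 1.68 (interaction 1.29 ± 0.15, edgeR adjusted p = 3.83e-05). MYC had log2 fold changes of -1.75 with ipatasertib and -0.80 without it (interaction -0.94 ± 0.1, edgeR adjusted p = 1.41e-05). IGFBP5 had -0.05 and -0.72 (interaction 0.67 ± 0.1, edgeR adjusted p = 0.000627), and TOP2A had 0.18 and -0.56 (interaction 0.74 ± 0.13, edgeR adjusted p = 0.00137). The number of interactions depended on single libraries: it was 3681 without tazemetostat library A, 674 without combination library B and 5452 without the A library of every group.

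**Figure D5:**
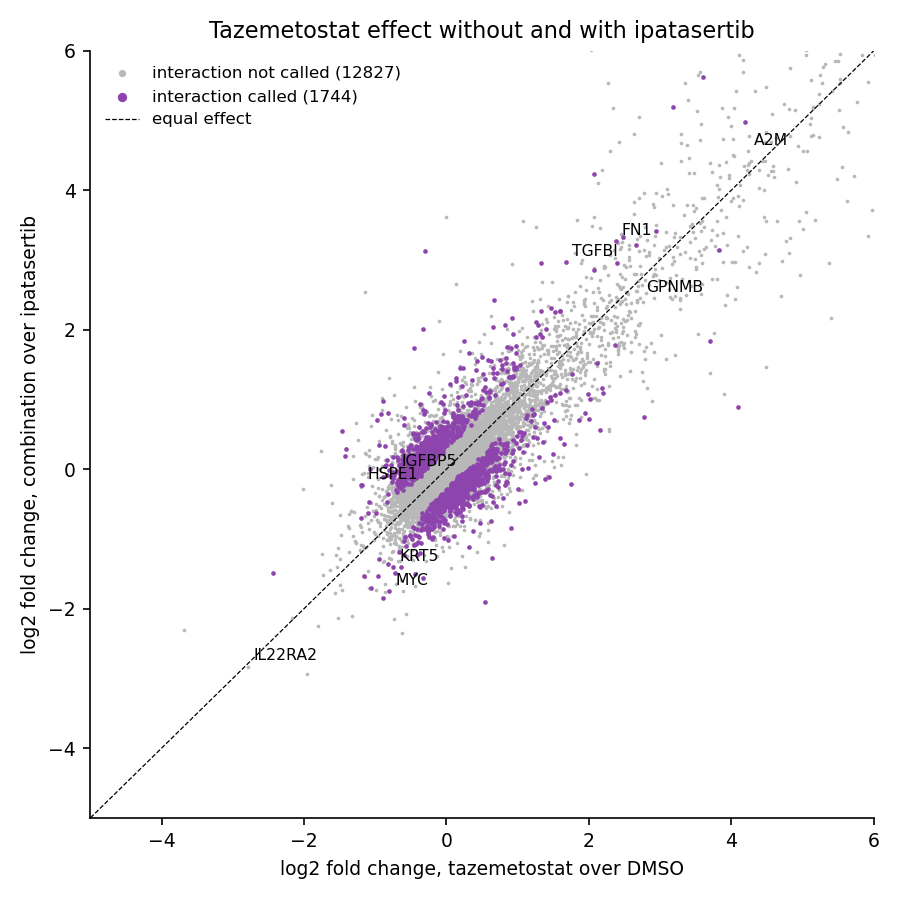
Log2 fold change of the combination over ipatasertib (vertical axis) against that of tazemetostat over DMSO (horizontal axis) for the genes tested, with the line of equal effect dashed; 180 genes lie outside the axes, which run over -5 to 6. Genes with a called interaction (1744, purple) lie on both sides of the line; FN1 and TGFBI lie above it and MYC and KRT5 below it, while A2M and IL22RA2 lie close to it.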

How the data were processed

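RNA from MDA-MB-468 cells was measured in 3 libraries for each of 4 groups. Counts per gene were deposited by the authors, 1 table per library, with gene symbols; STAR, SAMtools, HTSeq, DESeq2 and the build hg19 are named in the submitters' processing notes, without versions. No label or header states the strand setting or the annotation, so overlapping and antisense genes cannot be told apart. Rows that name no gene were left out; 66.23% of counted reads lay in genes with tazemetostat and 66.3% with DMSO.

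One edgeR 4.0.16 quasi-likelihood fit (R 4.3.3) with TMM factors and a mean per group held all 12 libraries. Genes were kept by filterByExpr with a minimum count of 10, which left 14571 of 23228. P-values were adjusted by Benjamini-Hochberg over these, with a threshold of 0.05. Errors beside log2 fold changes and interactions are the absolute value divided by the square root of the edgeR F statistic. They only approximate a standard error. Where a group has few reads, they can be smaller than counting error alone. Errors beside CPM are SDs over 3 libraries. Summed levels were compared by exact two-sided permutation, which cannot go below 0.1 here. Floors of 3 counts and 95% Poisson intervals cover counting error only, and PCR copies are not independent molecules. As alternatives the fit was repeated with other filters, without single libraries, with a replicate block, on 6 libraries, with library totals or RLE factors, and with DESeq2 1.42.0.

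Named genes were the 12 largest rises and falls by fold, the 10 largest by CPM difference, up to 5 called members per list by fold at 5 CPM or more, PRC2 subunits and cell type markers; others are marked in the text, and some genes that the rule picks are not reported here. Members and the 55 gene lists were chosen with earlier results of these data known. Promoters came from RefSeq (GRCh38.p14), with 15465 gene names matched; no coordinates were converted between builds.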

Additional observations from a re-analysis of the deposited data

Results flagged for a closer look

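Of the 182 tested genes named in the text, 37 had a tazemetostat effect that differed with and without ipatasertib, by the edgeR interaction at an adjusted p under 0.05. Over all genes tested it was 1744 of 14571 (12%), and the named genes were largely picked for the size of their change, so nothing is read from the share among them. The values below are that difference on the log2 scale, combination over ipatasertib minus tazemetostat over DMSO. The rise was larger with ipatasertib for COL12A1 (0.46), DKK1 (0.48), FN1 (0.89), INHBA (0.90), PCDH7 (0.78), SERPINA1 (0.78) and TGFBI (1.29). The rise was smaller with ipatasertib, or was not seen there, for BMF (-0.40), EFNB3 (-0.78), EPHB2 (-0.48), HES2 (-0.57), IGF2R (-0.31), KRT15 (-0.48), MUC1 (-0.63), NEO1 (-0.33), NOV (-0.68) and SMPD1 (-0.52); of these, MUC1 had 0.05 with ipatasertib.

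Genes that fell without ipatasertib had a less negative or a positive value with it for FLJ41200 (0.95), HNRNPA2B1 (0.40), HSP90AA1 (0.55), HSPE1 (0.97), ID4 (0.50), IGFBP4 (0.47), IGFBP5 (0.67), LYAR (0.47), MAD2L1 (0.66), NFKBIZ (0.81), PTMA (0.47), RFC3 (0.58), RPL14 (0.39), SMC4 (0.82), TIMP3 (0.61), TOP2A (0.74) and YAF2 (0.89). The fall was larger with ipatasertib for KRT14 (-0.34), KRT5 (-0.66) and MYC (-0.94). Adjusted p-values over the 37 genes lay between 1.41e-05 for MYC and 0.0484 for SERPINA1. The number of such genes over the whole table moved with single libraries, as given with the processing.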

How the results depend on the processing

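Counts of higher and lower genes moved by less than 1.5 times under all alternatives except the following. With a filter of at least 50 counts in 3 libraries, 631 higher and 32 lower genes changed by 1 or more on the log2 scale, since fewer genes with few counts were tested. The interaction count was 1012 with the replicate letter as a block, 5452 without the A library of every group, and 674 to 3681 when each library was left out in turn; the cause was not tested. In that leave-one-out range the count was 3231 without combination A, 676 without DMSO C, 714 without tazemetostat B, 889 without tazemetostat C, 945 without DMSO B, 982 without ipatasertib A and 1036 without ipatasertib C. Leaving out each library in turn gave 3130 to 3848 higher and 2475 to 3549 lower genes. With library totals 67.9% of the called genes were higher, against 54.9% with TMM factors. The replicate block gave 3543 higher and 2762 lower genes. Same-letter libraries of the tazemetostat and DMSO groups did not deviate together (correlations of -0.0576, -0.0118 and 0.0964 over 10217 genes), so the letters were not taken as pairs. DESeq2 gave 3576 higher and 3195 lower genes. Of 285 genes picked by the naming rule, 0 changed sign under any alternative while called. Leaving out combination or ipatasertib libraries, and restricting lists by level, were chosen after seeing the data. Genes of a few counts limit the depth: 3 counts over the DMSO group are 0.0389 CPM, so a gene without a DMSO read may still be expressed below that.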
